A study of Rattus norvegicus with 6 samples.

Results

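The microRNA miR-22 was measured in rat plasma after liver injury on a 1-colour Agilent array that carries 677 rat miRNAs. Its rows were the miRNA spots named rno-miR-22 by the array design, which were 2 probes and 20 spots of the 1644 probes and 13540 miRNA spots on each array. miR-22 was chosen by its measured values in this same comparison: after thioacetamide it had the second largest increase among the 59 tested miRNAs and the second highest mean signal. Its difference between the groups is therefore a description, and no test is given for it.

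The treated group was 3 male Wistar rats given thioacetamide at 100 mg/kg in 0.9% saline, and the control group was 3 male Wistar rats given the saline alone. Both were dosed into the peritoneum, and the study ended after 24 h. Thioacetamide is a toxicant that hepatocytes turn into reactive metabolites, and the series looked for plasma miRNAs that mark the damage. Equal volumes of plasma (125 µl) were extracted. A signal not scaled between arrays stands for an amount per volume of plasma only if RNA was recovered equally, which was not tested. Each array lists its own body weights and was taken as 1 animal. Over the study the treated animals lost 18, 19 and 20 g, and the vehicle animals gained 4, 3 and 4 g. Statistical values below reflect the spread between these 6 animals and, with 1 array each, the differences between the arrays as well.

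A mature miRNA is cut from a hairpin precursor and guides a silencing complex to messenger RNAs that pair with its seed, the bases near its 5′ end. miR-22 is made in most tissues and is abundant in liver and in heart and skeletal muscle. In mouse it takes part in cardiac hypertrophy. miRNAs leave damaged hepatocytes and persist in plasma bound to proteins or inside vesicles. miR-122, which hepatocytes make in very large amounts, is the usual yardstick for such release.

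The sequences that define what the array reports are shown first, written 5′ to 3′ and taken from the RefSeq miRNA table of the rat assembly GRCr8, with the seed (bases 2 to 8) in capitals. Both arms of the miR-22 hairpin and the dominant arm of miR-122 are given because each has its own row on the array.
rno-miR-22-3p: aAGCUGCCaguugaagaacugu
rno-miR-22-5p: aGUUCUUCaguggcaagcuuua
rno-miR-122-5p: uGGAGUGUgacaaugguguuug

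The hairpin is 95 bases long and is encoded by Mir22 on the plus strand of chromosome 10 in GRCr8. Its 2 arms are in capitals below, the 5p arm first.
Mir22 hairpin: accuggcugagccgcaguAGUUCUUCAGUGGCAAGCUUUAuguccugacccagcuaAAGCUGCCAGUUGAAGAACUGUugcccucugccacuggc

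Both rno-miR-22 probes are complementary to the 3p arm and differ by 1 base at their 3′ end. The shorter pairs with bases 5 to 22 of the mature sequence and the longer with bases 4 to 22, so neither covers the whole seed. The array files place them at chr10:62782784-62782800 and chr10:62782783-62782800 in the older build rn4, inside the miRNA itself, in spans 1 base shorter than the probes. The row of the other arm, named rno-miR-22*, has a single probe that pairs with bases 5 to 22 of miR-22-5p and lies at chr10:62782746-62782762.
18-base miR-22 probe: acagttcttcaactggca
19-base miR-22 probe: acagttcttcaactggcag
miR-22* probe: taaagcttgccactgaag

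Of the 693 mature sequences in the RefSeq table, 1 had the miR-22-3p seed, namely miR-22-3p itself. A probe matched a RefSeq mature sequence for 619 of the 677 array miRNAs. No seed relative of miR-22 was thus found whose values could be set beside it.

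Detection was taken from the scanner software, which calls a spot well above background or not. A miRNA counted as detected if, for any of its probes, more than 50% of the unmarked spots on an array had that call. By this measure 22, 69 and 83 miRNAs were detected on the treated arrays, against 62, 27 and 16 on the vehicle arrays, and 578 of the 677 on none. The 59 detected on at least 3 arrays were tested. The background was wider on the arrays in slide columns 1 and 2, which held thioacetamide 1, vehicle 2 and vehicle 3, than in columns 3 and 4, which held thioacetamide 2, thioacetamide 3 and vehicle 1. The lowest spot called well above background was 437, 41.2 and 47.0 intensity units on thioacetamide 1, 2 and 3, and 18.7, 138 and 155 on vehicle 1, 2 and 3. Vehicle 1 thus resolved signals that vehicle 2 and vehicle 3 could not.

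miR-22 was bright on every treated array and near the limit of detection in vehicle plasma. The summed signal of its probes, before any scaling between arrays, was 8776, 7841 and 11005 units on thioacetamide 1, 2 and 3, against 191, 80.4 and 59.1 units on vehicle 1, 2 and 3. The lowest treated value was 41.0 times the highest vehicle value, so the groups did not overlap, which was also so for 27.1% of the tested miRNAs in the direction of higher treated values and for 10.2% in the other. In group means, miR-22 had 9208 ± 1626 units after thioacetamide and 110 ± 71.1 units after vehicle (SD, n = 3 each). For a plasma signal, release from more cells and more RNA released per cell cannot be told apart.

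The single spots separated the groups on each probe. All 56 unmarked miR-22 spots of the 3 treated arrays were well above background, against 20 of 57 in vehicle plasma, and those 20 were all on vehicle 1. On the 19-base probe, single spots ran from 5802 to 10774 units after thioacetamide and from 42.5 to 177 units after vehicle. The 18-base probe ran from 1284 to 2472 units after thioacetamide and from -22.8 to 46.6 units after vehicle. No treated spot of either probe came near the vehicle spots of the same probe.

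The repeated spots give the technical error of each value. Where a probe was well above background, its spots varied by 1.88% to 18.2% (coefficient of variation, 8 combinations of probe and array). On the 19-base probe the array means were 7090, 6349 and 8873 units after thioacetamide and 156, 86.4 and 72.6 units after vehicle. On the 18-base probe they were 1686, 1492 and 2133 units after thioacetamide and 35.0, -5.99 and -13.5 units after vehicle. These spot errors are technical and do not include the spread between animals.

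**Figure D1:**
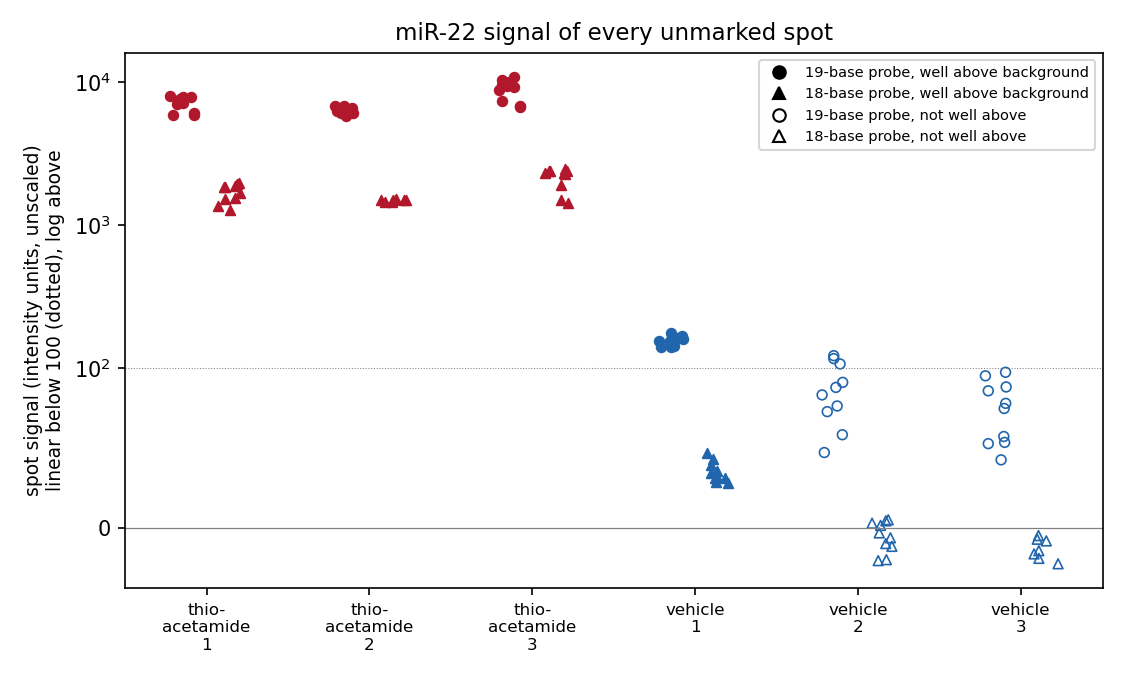
Signal of every unmarked miR-22 spot (intensity units, unscaled; the axis is linear below 100 and logarithmic above) on the 3 thioacetamide and 3 vehicle arrays, with circles for the 19-base probe, triangles for the 18-base probe and open symbols for spots not well above background. The treated spots of the 19-base probe lie between 5802 and 10774 units, and the open symbols are all on vehicle 2 and vehicle 3.

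The 2 probes kept a steady proportion wherever both could be read. The 19-base probe was 4.21, 4.25 and 4.16 times as bright as the 18-base probe on thioacetamide 1, 2 and 3 (mean 4.21 ± 0.0470, SD, n = 3), and 4.47 times as bright on vehicle 1. On vehicle 2 and vehicle 3 no proportion could be formed, because the shorter probe lay below 0. For miR-122, whose probes are 19 and 20 bases long, the longer was 2.71, 2.58 and 2.54 times as bright on the treated arrays and 2.62 times on vehicle 1.

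On vehicle 2 and vehicle 3 the shorter probe lay below 0 and neither probe was well above background, so the summed values there are not measured levels. The negative control spots, 434 per array, show how near it was to background. Their 95th percentile was 290, 112 and 194 units on thioacetamide 1, 2 and 3 and 30.8, 115 and 115 units on vehicle 1, 2 and 3. Of the 10 spots of the 19-base probe, 10 exceeded that level on vehicle 1, 2 on vehicle 2 and 0 on vehicle 3. Vehicle 1 was therefore the one control array with a measured level of miR-22, and against it alone the treated mean was 48.1 times as high, with single treated arrays between 41.0 and 57.5 times, all unscaled. When arrays were scaled to the probes detected on all 6, the treated mean was 37.1 times as high and single treated arrays were between 18.9 and 49.4 times.

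The other arm of the hairpin was not detected. miR-22* had -8.40, 9.80 and 17.9 units on thioacetamide 1, 2 and 3, against -2.32, -19.6 and -22.0 units on vehicle 1, 2 and 3. None of its 59 unmarked spots in either group was well above background, and none exceeded the 95th percentile of the negative controls on its array. The signal was thus on the row of the 3p arm, while the 5p arm was not detectable at this background.

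For comparison across arrays, each was scaled by the 75th percentile of the 12 probes detected on all 6 arrays, values were raised to a floor of 46.1 and log2 was taken. Scaled miR-22 was 3860, 10115 and 8816 units on thioacetamide 1, 2 and 3 and 205, 104 and 94.4 units on vehicle 1, 2 and 3. On the log2 scale the means were 12.77 ± 0.75 after thioacetamide and 6.98 ± 0.61 after vehicle (SD, n = 3 each). The log2 change was 5.80 with a standard error of 0.54. Without vehicle 3 it was 4.82, with no scaling 6.56, and with spike-in RNA for scaling 6.68. The total gene signal of the scanner software gave 6.69, a floor 4 times as high 5.20, quantile normalization 4.64 and normexp background correction 4.41.

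The order of the treated animals depended on the scaling. Unscaled, thioacetamide 3 was highest and thioacetamide 2 lowest, and the highest was 1.40 times the lowest. Scaled, thioacetamide 2 was highest and thioacetamide 1 lowest, and the highest was 2.62 times the lowest. The 12 probes behind the scaling include those of miR-16, miR-451, miR-92a and miR-25, all carried by red cells, and the scale factors ran from 0.775 to 2.27 in treated and from 0.626 to 0.936 in vehicle arrays. The same 12 also include probes of miR-19b, let-7d*, miR-328a and miR-1224. Of these, miR-1224 averaged 5416 unscaled units after thioacetamide and 533 after vehicle. No order among the treated animals is read from these values. Before scaling, miR-22 varied least of the 18 miRNAs detected on all treated arrays, with an SD of 0.25 in log2 signal against a median of 0.63. After scaling its SD was 0.75 against a median of 0.54, and 12 of the 18 varied less.

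Both sides of the slide held treated and vehicle arrays, so the change could be taken within each. In columns 1 and 2 it was 5.29 (1 treated and 2 vehicle arrays) and in columns 3 and 4 it was 5.53 (2 treated and 1 vehicle array), both on the log2 scale. Each side has a group of 1 array, and in columns 1 and 2 both vehicle arrays were those on which miR-22 was not well above background. With slide side added to the fit as a block, the change over all 6 arrays was 5.41. Whether the slide side itself has a part in the value was not tested.

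miR-22 stood between a well-known liver marker and a second one in the order of change. Just above it was miR-122, with a log2 change of 8.10 ± 0.61 (SE), and just below it miR-192, a miRNA abundant in liver, kidney and gut, with 4.23 ± 0.46. In the order of mean scaled signal after thioacetamide, miR-122 was again above it and miR-1224 next below. miR-1224 is a miRNA made by splicing of a short intron, and unlike the other neighbours it was bright in both groups, with 5416 ± 2831 units after thioacetamide and 533 ± 36.4 units after vehicle (SD, n = 3 each, unscaled).

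**Figure D2:**
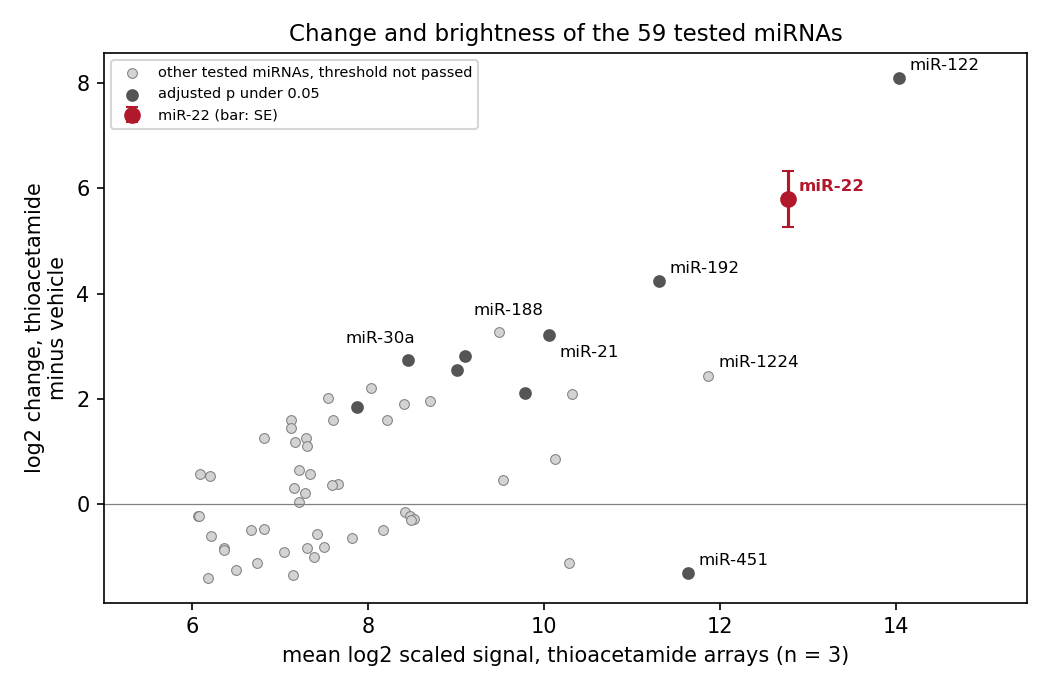
Log2 change, thioacetamide minus vehicle, against mean log2 scaled signal of the 3 thioacetamide arrays for the 59 tested miRNAs, with miR-22 in red (bar: standard error) and miRNAs at an adjusted p under 0.05 in dark grey. miR-22 lies at a change of 5.80 and a signal of 12.77, between miR-122 at the upper right and miR-192.

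In treated plasma miR-22 made up a large part of all measured miRNA signal. Its share of the unscaled signal of the 59 tested miRNAs was 12.6%, 15.1% and 12.3% on thioacetamide 1, 2 and 3, against 1.04%, 0.382% and 0.429% on vehicle 1, 2 and 3. The means were 13.3% ± 1.54 after thioacetamide and 0.616% ± 0.365 after vehicle (SD, n = 3 each), a difference of 12.7 percentage points. These are shares of fluorescence and not of molecules, since probes differ in brightness per molecule. miR-22 ranked second in signal on all 3 treated arrays and 13th, 42nd and 39th on vehicle 1, 2 and 3.

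A share depends on what else is in the sum. miR-122 took 32.7% ± 8.95 after thioacetamide and 0.223% ± 0.181 after vehicle. miR-451, the main red cell miRNA, took 6.94% ± 4.75 after thioacetamide and 35.4% ± 8.09 after vehicle. With miR-122 left out of the sum, miR-22 made up 16.4%, 22.9% and 20.8% on the treated arrays and 1.04%, 0.382% and 0.429% on the vehicle arrays. Because miR-122 took far more of the treated sum than of the vehicle sum, leaving it out could only widen the gap in share.

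**Figure D3:**
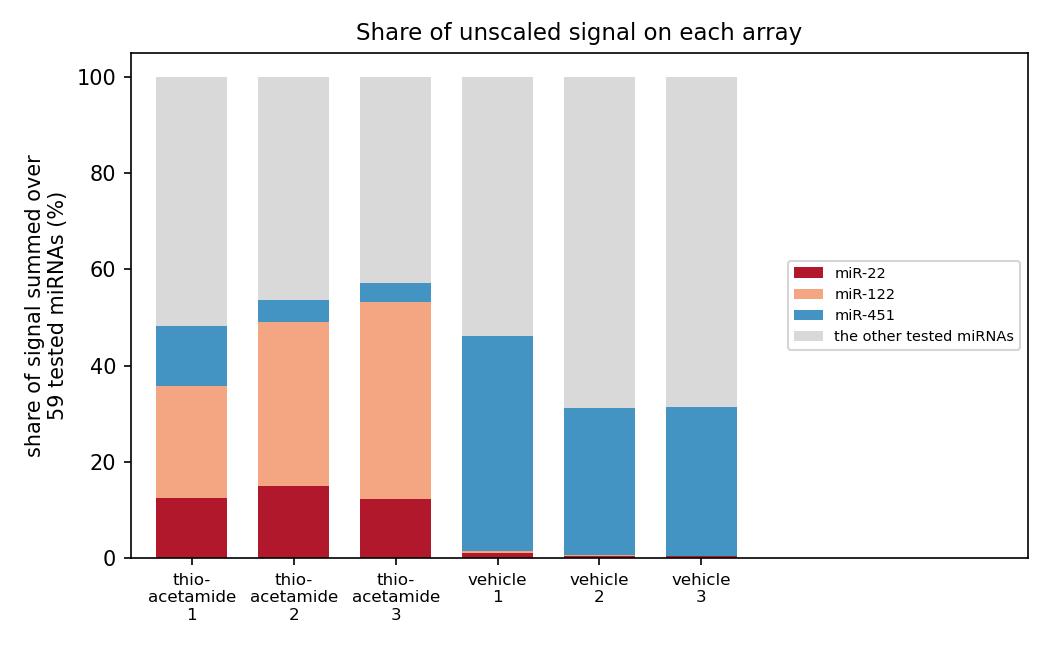
Share of the unscaled signal summed over the 59 tested miRNAs (percent) taken by miR-22, miR-122, miR-451 and the others on each of the 3 thioacetamide and 3 vehicle arrays. miR-22 takes 12.3% to 15.1% of each treated bar and at most 1.04% of a vehicle bar, where miR-451 is the largest named block.

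Set against miR-122, miR-22 was relatively lower in treated plasma. miR-122 had the largest increase of the tested miRNAs, and miR-22 was chosen as the next in that order. The direction of the difference in their ratio therefore follows from the choice and is a description. miR-122 had 16178, 17715 and 36721 unscaled units on thioacetamide 1, 2 and 3 and 73.3, 50.01 and 4.92 units on vehicle 1, 2 and 3. The signal of miR-22 divided by that of miR-122 was 0.542, 0.443 and 0.300 on the treated arrays, against 2.61, 1.61 and 12.0 on the vehicle arrays. The groups did not overlap, and within an array this value does not depend on the scaling. It compares the brightness of different probes and is not a ratio of molecules, so what is described is its difference between the groups.

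The log2 ratio averaged -1.27 ± 0.43 after thioacetamide and 1.89 ± 1.51 after vehicle (SD, n = 3 each), a difference of -3.15. miR-122 was not well above background on vehicle 2 and vehicle 3, and neither was miR-22, so those ratios are between unmeasured levels. Against vehicle 1, where both were measured, the difference was -2.65. Without vehicle 3, which has the highest ratio, it was -2.30, and without vehicle 2 it was -3.75. Within columns 1 and 2 of the slide it was -3.02 and within columns 3 and 4 it was -2.84. With the normexp background correction it was -1.63, the smallest value of all settings tried.

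**Figure D4:**
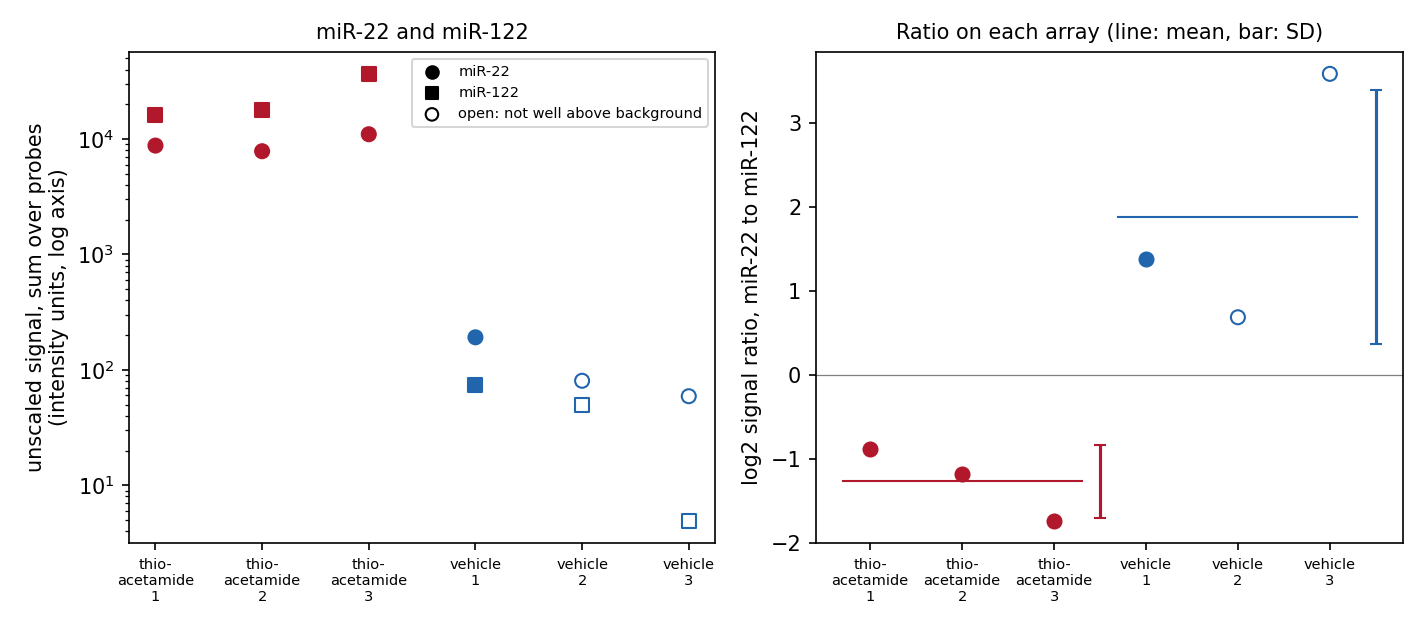
Left, unscaled signal of miR-22 (circles) and miR-122 (squares) in intensity units on a log axis; right, log2 of their signal ratio on each of the 3 thioacetamide and 3 vehicle arrays, with lines at the group means and bars for the SD. The treated ratios lie below 0 and the vehicle ratios above it, and open symbols on vehicle 2 and vehicle 3 mark signals not well above background.

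Several other miRNAs known from liver were also higher. Of the 59 tested miRNAs, 10 (16.9%) passed an adjusted p of 0.05 by limma, 9 (15.3%) of them higher and 1 (1.69%) lower after thioacetamide. The liver list held 8 miRNAs, of which 6 were detected on some array and 4 were tested. Of these 4, 3 rose (miR-122, miR-192 and miR-122*), none fell and 1 did not pass, with a median log2 change of 3.52 against 0.45 over all tested miRNAs. The list was drawn up with earlier results of these data known, so its count is a description. Of its tested members, miR-122* and miR-193 entered the test through the treated arrays alone.

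Among the liver miRNAs, miR-192 had 3611, 2682 and 3747 unscaled units on thioacetamide 1, 2 and 3. On vehicle 1, 2 and 3 it had 88.9, 121 and 105 units. The groups did not overlap, which held for 27.1% of all tested miRNAs in this direction. miR-192 was detected on 1 vehicle array, so its other vehicle values are not measured levels. miR-122*, the other arm of the miR-122 hairpin, had 737, 580 and 859 units after thioacetamide and 8.42, 70.5 and 71.9 units after vehicle. It was not well above background on any vehicle array, and its scaled signal was at least 5.71-fold higher after thioacetamide. The test used vehicle values that are not measured levels (limma, adjusted p = 0.0130). Of 23 alternatives, 5 did not call it. Among these were a floor 0.25 times as high (limma, adjusted p = 0.0652) and normexp (limma, adjusted p = 0.0704). Another was scaling by the 75th percentile over all miRNA probes (limma, adjusted p = 0.193). miR-193, which is enriched in liver and brown fat, was also not well above background on any vehicle array. Its log2 change was 1.59 ± 0.58 (SE), from vehicle values that are not measured levels, and it did not pass (limma, adjusted p = 0.103). The passenger arm of miR-122 was thus detected in treated plasma, whereas that of miR-22 was not.

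Of the other liver miRNAs, miR-194 and miR-802 were detected on no array. miR-215 was detected on 1 vehicle array and miR-365 on 2 treated arrays. miR-194 is cotranscribed with miR-192, and its signal was 40.2, 9.80 and 16.4 units on the treated arrays and 1.81, 7.55 and 4.12 units on the vehicle arrays. The summed signal of the liver list, miR-22 not included, was 21419 to 41866 units after thioacetamide and 241 to 418 units after vehicle.

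miRNAs that, like miR-22, are made in most tissues were also higher in part. All 10 of this list were detected on some array, and 9 were tested. Of these 9, 5 rose, none fell and 4 did not pass, where 15.3% of all tested miRNAs rose and 1.69% fell. The median log2 change was 2.02 against 0.45 over all tested miRNAs. This list, too, was drawn up with earlier results of these data known, so its count and median are a description. Every miRNA that rose, other than miR-22, is on this list or the liver list. The 5 were miR-21, miR-30a, miR-30d, miR-29a and miR-27b, each detected on 1 vehicle array. Their summed signal with the rest of the list was 4098 to 6296 units after thioacetamide and 213 to 814 units after vehicle.

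miR-21, which is induced in injured and growing tissue, had 2479, 948 and 1133 unscaled units on thioacetamide 1, 2 and 3 and 138, 80.8 and 60.8 units on vehicle 1, 2 and 3. Its log2 change was 3.22 ± 0.36 (SE; limma, adjusted p = 0.00107). miR-30a had 585, 363 and 449 units on the treated arrays and 50.7, 44.6 and 26.2 units on the vehicle arrays, a log2 change of 2.75 ± 0.38 (limma, adjusted p = 0.00289). miR-29a, which represses collagen genes, had 1582, 846 and 1135 units on the treated arrays and 167, 175 and 133 units on the vehicle arrays, a log2 change of 2.11 ± 0.35 (limma, adjusted p = 0.00760). For each of the 3 the groups did not overlap, which held for 27.1% of all tested miRNAs in this direction. Each was detected on 1 vehicle array, so the other vehicle values behind these changes are not measured levels.

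Some of these calls were lost when an array was left out. miR-30d changed by 2.54 ± 0.50 and miR-27b by 1.84 ± 0.45 on the log2 scale (limma, adjusted p = 0.0134 and 0.0353). Without vehicle 3, limma no longer called miR-30d (1.83, adjusted p = 0.0628), miR-29a (1.37, adjusted p = 0.0744) or miR-27b (1.31, adjusted p = 0.123). Without vehicle 2, miR-27b had a log2 change of 2.03 and was not called either (limma, adjusted p = 0.0510). Of the miRNAs of both lists, 8 of 13 tested passed with all arrays and 5 of 13 without vehicle 3. Without thioacetamide 2 or without thioacetamide 3, only 5 of them were tested and all 5 passed. Among all tested miRNAs, 25 of 53 passed without thioacetamide 1 and 6 of 29 without thioacetamide 3, against 10 of 59 with all arrays. Before scaling, the miR-22 groups stay apart in all of these, since removing an array cannot join groups that do not overlap. Scaling and floor were redone at each removal, and the log2 change of miR-22 was then 4.82 to 6.15.

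Markers of other sources were read beside miR-22. Of the 6 muscle and heart miRNAs (miR-1, miR-133a, miR-133b, miR-206, miR-208 and miR-499), none was detected on any array, where thioacetamide 1 called no spot under 437 units well above background. Their summed signal was -619 to 8.67 units after thioacetamide and -213 to 6.49 units after vehicle. The muscle-defining miR-1 had -278, -1.19 and 1.06 units on the treated arrays and -1.67, -73.4 and -97.1 units on the vehicle arrays. None of the 3 brain miRNAs was detected either.

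Red cells carry miR-22 as well as their own abundant miRNAs. Of the 6 red cell markers 5 were on the array and 4 were tested. None rose and 1, miR-451, fell (limma log2 change -1.31 ± 0.34 SE, adjusted p = 0.0427), where 15.3% of all tested miRNAs rose and 1.69% fell. The median log2 change of the 4 was -0.68, and all 4 are among the miRNAs whose probes set the scaling. Unscaled, miR-92a averaged 1477 units after thioacetamide and 490 after vehicle, and miR-25 averaged 492 and 330. In the other direction, miR-16 averaged 1795 and 2181, and miR-451 averaged 4842 and 6317. The call for miR-451 was lost with no scaling (limma log2 change -0.56, adjusted p = 0.598) and when spike-in RNA set the scale (-0.43, adjusted p = 0.763), so its direction relative to plasma volume is unsettled. Summed over the list, the signal was 4715 to 13544 units after thioacetamide and 6264 to 12013 units after vehicle, and these ranges overlapped. miR-144, which shares a precursor transcript with miR-451, was detected on no array. Of the 4 leukocyte markers 3 were on the array and 2 were tested, and neither passed, with log2 changes of 0.03 for miR-223 and -0.91 for miR-150.

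The miRNAs whose profile over the 6 arrays lay nearest to miR-22 were mostly those that also differed most between the groups. Likeness was the root mean square difference between log2 profiles, each centred on its own mean, computed for the 58 other tested miRNAs. The nearest were miR-192 at 1.00, miR-122 at 1.19, miR-21 at 1.38, miR-30a at 1.57 and miR-188 at 1.59, against a median of 2.79 over the 58. miR-188 had 503, 1043 and 1546 unscaled units on the treated arrays and 44.2, 146 and -31.4 units on the vehicle arrays, and did not pass the test (limma log2 change 3.27 ± 0.91 SE, adjusted p = 0.0546). Since miR-22 was chosen for its change, this measure picks out others with a large change.

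**Figure D5:**
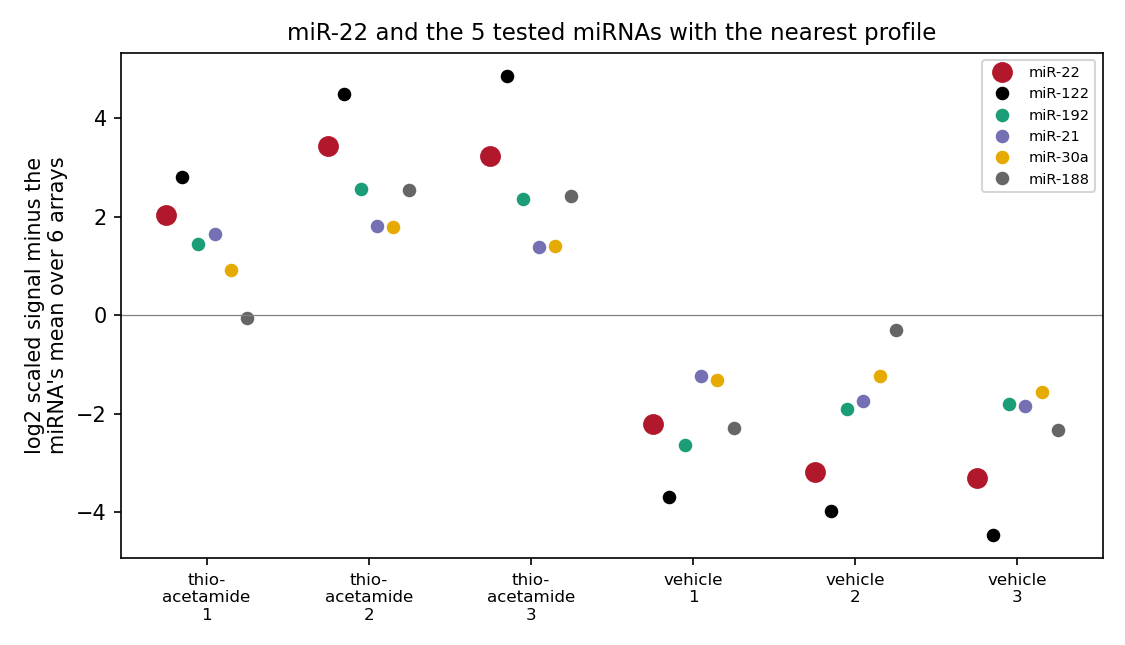
Log2 scaled signal of miR-22 and the 5 miRNAs with the nearest profile, each minus its own mean over the 6 arrays, on the 3 thioacetamide and 3 vehicle arrays. The treated values of miR-22 lie 2.04 to 3.43 above its mean, between those of miR-122 and miR-192.

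When profiles were centred within each group, so that the difference between the groups no longer counted, the nearest were different miRNAs. These were miR-24 at 0.17, miR-107 at 0.26 and miR-19a at 0.30, while miR-122 was at 0.32. Each of miR-24, miR-107 and miR-19a was detected on 2 treated arrays and 1 vehicle array, so their other values are not measured levels. On thioacetamide 1, scaled miR-107 (41.4) and miR-19a (30.5) lay below the floor of 46.1, as did miR-107 on vehicle 3 (28.1). Their deviations there come from the floor value. Within the groups, miR-22 lay 0.86 below its treated mean on thioacetamide 1 and 0.70 above its vehicle mean on vehicle 1, and miR-24 lay 1.18 below and 0.73 above on the same arrays. None of the 3 passed the test between the groups: the log2 changes by limma were 1.91 ± 0.64 for miR-24 (adjusted p = 0.0819), 0.52 ± 0.42 for miR-107 (adjusted p = 0.395) and -0.23 ± 0.50 for miR-19a (adjusted p = 0.762). These deviations also carry the scale factor of each array, which all miRNAs of an array share.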

How the data were processed

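The authors deposited spot intensity on a linear scale after background subtraction, with no log transform and no scaling between arrays. The software was Agilent Feature Extraction, version 10.7.3.1, according to the submitters' processing notes. Sample titles gave the group of each array. The other array measures in the scanner files, such as detection calls and outlier marks, are also the authors' deposited values. For the well-above-background call, the file headers give a multiple of 13. The deposited value table matched the scanner files to within 0.005.

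Control spots (715 per array) and 2126 marked spots over the 6 arrays were left out, and no spot was saturated. Spots of a probe were averaged, and probe means of a miRNA were summed. Scaling used the 75th percentile of 12 probes, of 8 miRNAs, that every array detected. Values under 46.1, which is the 5th percentile of detected scaled sums, were set to it before log2 was taken. Detection on at least 3 arrays left 59 miRNAs, which were fitted with limma (version 3.58.1, R 4.3.3; functions lmFit and eBayes; 4 residual and 2.41 prior degrees of freedom), treatment being the only term. Adjusted p-values are Benjamini-Hochberg values over all 59, with a threshold of 0.05. A bound (at least N-fold) sets the treated mean against a ceiling on each vehicle array, namely its own signal or the dimmest signal called well above background, whichever is higher, and has no sampling error. The scripts were tested on simulated data.

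Named are miR-22 and its other arm, miR-122, the neighbours in change and brightness, the 5 nearest profiles over all arrays and 3 within groups, the tested liver miRNAs, 5 widely expressed ones, any seed relative and the marker lists. Members and lists were chosen with earlier results of these data known. The number of arrays limits the precision. Other scalings, background corrections, floors, filters, slide position and each array left out were tried as alternatives.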

Additional observations from a re-analysis of the deposited data

How the results depend on the processing

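The log2 change of miR-22 (5.80) kept its direction under the alternatives that gave it a value; among miRNAs detected on all 6 arrays it was not tested. It was 6.56 with no scaling, 4.64 with quantile normalization, 6.68 with spike-in scaling, 4.41 with normexp, 6.69 with the total gene signal of Feature Extraction, and 4.82 to 6.15 with 1 array left out. The ratio to miR-122 differed by -1.63 with normexp, and by -3.75 to -2.30 with 1 array left out. The difference in share was 10.5 points with normexp, 13.9 with the brightest probe, 18.3 over miRNAs detected on all 6 arrays, 9.95 over all miRNAs, and 12.9 to 15.0 with 1 array left out. Relative to the main scaling, the median change of the tested miRNAs shifted by 0.52 with no scaling, 0.72 with spike-ins, -0.39 with quantile normalization and -0.42 with median scaling on all-array miRNAs.

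Of the 59 tested miRNAs, 10 passed (9 higher). The count was 3 with the percentile over all probes (3 higher), 22 with no scaling or spike-in scaling (22 higher), 16 with the median of all-array miRNAs (12 higher), 6 with normexp (5 higher), 17 with the brightest probe (14 higher), 2 of 677 with no filter, 19 of 99 with detection on at least 1 array, 2 of 8 with detection on all 6, 37 in columns 3 and 4 alone, and 6 to 25, of 29 to 54 tested, with 1 array left out. Quantile normalization gave 5 higher and 2 lower. In columns 1 and 2 alone limma called 0, while 11 were higher and 5 lower at p under 0.05 without adjustment. In the liver and widely expressed lists, 8 of 13 passed. That was 2 with the percentile over all probes, 13 with no scaling or spike-ins, 4 with quantile normalization or normexp, 5 with the floor 4 times as high, 1 of 18 with no filter, and 5 to 10, of 5 to 13 tested, with 1 array left out. The cause of these differences was not tested.

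Same-numbered arrays did not deviate together (correlations -0.70, -0.31 and -0.66). Each such pair lay on opposite sides of the slide, where the background differed, so these values cannot show whether the numbers pair animals. With the replicate number as a block, 10 passed (10 higher), 8 of them in the lists, and the miR-22 change, ratio difference and share difference were 5.80, -3.15 and 12.7. Depth of signal over background on vehicle 2 and vehicle 3 limits the miR-22 values of those arrays.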
